A study of Mus musculus with 4 samples.

Results

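Cholesterol synthesis in the newborn mouse lens was examined through 8 enzymes of the pathway, Hmgcs1, Idi1, Fdps, Fdft1, Sqle, Lss, Cyp51 and Dhcr7. All probe sets were taken whose platform annotation names 1 of these genes and no other gene, which gave 21 of the 45037 probe sets that are not controls, for 8 of 18193 genes. Lens tissue of mice labelled as HSF4 knockout was compared with lens tissue of wild-type mice, with 2 Affymetrix arrays per group, numbered 1 and 2 in each. Both groups were of the 129S3 background, were labelled male and were taken at postnatal day 0.5. The deleted part of Hsf4, and any pooling of lenses, are not described in the labels. Nor do the labels tie each array to its own animal, so the p-values reflect how far these 4 arrays spread, and that spread may be purely technical.

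Cholesterol is built from acetyl units through mevalonate, isoprenoid diphosphates, squalene and lanosterol. The pathway is switched on by the transcription factors SREBP-1 and SREBP-2, which leave the endoplasmic reticulum when its sterol content is low and bind sterol response elements in the promoters of the enzymes. The lens has no blood supply of its own after development, its fibre cell membranes are rich in cholesterol, and defects of the enzyme lanosterol synthase are a known cause of cataract in humans. Hsf4 encodes heat shock transcription factor 4, which is needed for normal lens fibre cells. The comparison addresses whether RNA of the pathway differs between lenses labelled as Hsf4 knockout and wild-type lenses.

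The promoter of Hmgcs1 is shown because, of the enzymes with a promoter window, it alone holds a match to the sterol response element motif bound by SREBPs. In RefSeq's promoter windows (build GRCm38.p6), which run from upstream of a gene's start to just past it and hold 5 of the 8 enzymes, the Hmgcs1 window lies at chr13:119690101-119690400 on the plus strand. The capitals mark its only match to TCACNCCAC, at position -137 from the start of the gene.
Hmgcs1 promoter: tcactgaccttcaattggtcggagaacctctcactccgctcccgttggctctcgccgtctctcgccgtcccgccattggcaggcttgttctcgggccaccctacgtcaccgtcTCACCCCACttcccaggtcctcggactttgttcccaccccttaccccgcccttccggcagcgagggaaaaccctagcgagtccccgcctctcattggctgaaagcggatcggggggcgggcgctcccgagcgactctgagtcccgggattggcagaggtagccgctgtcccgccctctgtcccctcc
This motif was found in 1.24% of all 32851 windows and, of the 5 enzymes with a window, in Hmgcs1 only. All matches were sought on both strands. The E-box-like sterol motif TCACNTGA, present in 4.18% of windows, was found in none of the 5 enzymes. CCAAT, the box bound by NF-Y, occurred in 5 of the 5 enzymes and in 37.4% of all windows, and the Sp1 box GGGCGG occurred in 5 of the 5 and in 35.7%, though for Dhcr7, with several windows, not in every one. Paired heat shock element units of the form GAANNTTC were found in Idi1 only, as GAATTTTC and GAAGCTTC, against 7.86% of all windows, and TTCNNGAA was found in none of the 5, against 8.52%. A match, or its absence, describes the letters of these windows only.

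The only Hsf4 probe set measured 1212 and 413 on the arrays labelled knockout against 505 and 138 on those labelled wild type, so it was higher within each number on the knockout array. The sources used here do not place it relative to the deleted part, so it does not check the labels, and directions below refer to the arrays as labelled.

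No difference between knockout and wild type was called for any of the 8 enzymes. After quantile normalization, 16 of the 21 probe sets had a mean above the filter on dim probe sets (an intensity of about 13.0) and were tested with limma over all 22519 probe sets above it. Of the 16, 0 passed an adjusted p of 0.05 (Benjamini-Hochberg), 0 had an unadjusted p under 0.05, and the adjusted p was 1 for each. Over all probe sets tested, 0.0178% passed, so few calls were made anywhere in this fit. With the array number added to the fit over genes, 200 of 11595 genes were called, against 4 without it. Of the 8 enzymes 0 were called either way. A p that misses the threshold does not show equal levels. In whole tissue, fewer cells of a type and less RNA per cell cannot be told apart. In the following, levels are normalized intensities of 1 probe set on each array, and changes are log2 changes, knockout minus wild type, of intensity plus 16. Levels of different probe sets cannot be compared with each other.

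Hmgcs1 encodes the cytosolic synthase that makes HMG-CoA, the step before mevalonate, and it has 5 probe sets, all tested. Its brightest, 1433443_a_at, measured 1049 and 1136 on knockout arrays 1 and 2, against 1088 and 1571 on wild-type arrays 1 and 2, which gives 1092 ± 61.4 and 1329.8 ± 342 (SD, n = 2 each). The groups overlapped, and wild-type array 2 was the highest. The log2 change was -0.26 (SE 0.26, 95% interval -0.84 to 0.32). Probe set 1433444_at measured 582 and 352 on the knockout arrays against 596 and 705 on the wild-type arrays, and both knockout arrays were lower, by little in number 1. Its log2 change of -0.50 (SE 0.31, interval -1.20 to 0.20) was the largest among the 16. Probe set 1433445_x_at measured 1187 and 575 on the knockout arrays and 968 and 1023 on the wild-type arrays. Probe set 1433446_at measured 289.6 and 132 on the knockout arrays and 214 and 237 on the wild-type arrays. In both, knockout array 1 was the highest and knockout array 2 the lowest, so the groups overlapped, with log2 changes of -0.26 and -0.18. The dim probe set 1441536_at, at 8.94 and 10.9 in knockout against 15.8 and 19.7 in wild type, lay just above the filter, and its groups did not overlap (log2 -0.38, SE 0.33).

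All 5 Hmgcs1 probe sets were thus below wild type within number 2, by log2 changes of -0.41 to -0.97. Within number 1 they were not alike, with -0.05 for 1433443_a_at, -0.03 for 1433444_at, -0.35 for 1441536_at, 0.29 for 1433445_x_at and 0.41 for 1433446_at. The probe sets measure the same gene on the same arrays and are not replicates.

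The isoprenoid steps follow. Idi1 encodes isopentenyl-diphosphate isomerase, which makes the allylic starter unit of the chain. Its probe set 1451122_at measured 379.6 and 289 on the knockout arrays against 375 and 347 on the wild-type arrays (334 ± 63.7 and 361 ± 19.7, SD, n = 2 each). Knockout array 2 was the lowest and the other 3 were close together, and the log2 change was -0.12 (SE 0.29, interval -0.77 to 0.54). The second probe set, 1423804_a_at, measured 130.2 and 66.8 in knockout against 111 and 103 in wild type, again with knockout array 1 highest and knockout array 2 lowest (log2 -0.16, SE 0.35).

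Fdps encodes farnesyl diphosphate synthase, the branch point between sterols and protein prenylation. Its probe set 1423418_at measured 362 and 386 in knockout against 311 and 426 in wild type (374 ± 16.5 and 368 ± 81.1, SD, n = 2 each). Both knockout arrays lay between the wild-type arrays, with a log2 change of 0.04 (SE 0.29, interval -0.62 to 0.70). Its other probe set, 1438150_at, was under the filter and reached at most 0.80 on any array.

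Fdft1 encodes squalene synthase, the first step committed to sterols. Its 2 bright probe sets differed in direction. Probe set 1438322_x_at measured 434 and 554 in knockout against 384 and 653 in wild type, with both knockout arrays between the wild-type arrays (log2 -0.03, SE 0.32). Probe set 1448130_at measured 464 and 517 in knockout against 390.4 and 440.2 in wild type, and here both knockout arrays were the higher ones (log2 0.23, SE 0.27, interval -0.38 to 0.85). It was the only one of the 16 with both knockout arrays above both wild-type arrays. Probe sets 1438918_at and 1438919_x_at were under the filter and had no test.

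Sqle encodes squalene monooxygenase, which adds oxygen to squalene. Its only probe set, 1415993_at, measured 407 and 308 in knockout against 381 and 338 in wild type (358 ± 70.1 and 359.5 ± 30.7, SD, n = 2 each). The wild-type arrays lay between the knockout arrays, and the log2 change was -0.02 (SE 0.29, interval -0.67 to 0.64).

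Lss encodes lanosterol synthase, which closes the sterol rings. Its probe set 1426913_at measured 105 and 60.6 in knockout against 77.0 and 78.3 in wild type (82.7 ± 31.3 and 77.7 ± 0.919, SD, n = 2 each). The wild-type arrays were nearly equal and lay between the knockout arrays (log2 0.04, SE 0.33, interval -0.71 to 0.79). Probe set 1420013_s_at measured 62.5 and 39.2 in knockout against 41.5 and 55.8 in wild type, likewise highest on knockout array 1 and lowest on knockout array 2 (log2 0.04, SE 0.33). The third, 1420014_at, measured 9.72 and 3.80 in knockout against 16.3 and 5.68 in wild type and was under the filter.

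Cyp51 encodes lanosterol 14-alpha-demethylase, and its brightest probe set had the flattest profile of the 8. Probe set 1450646_at measured 146 and 149.6 in knockout against 154 and 147 in wild type (148 ± 2.40 and 150.2 ± 4.84, SD, n = 2 each), with groups that overlapped and a log2 change of -0.02 (SE 0.29, interval -0.68 to 0.64). Probe set 1422533_at measured 85.5 and 77.5 in knockout against 80.1 and 91.6 in wild type (log2 -0.06, SE 0.30). The third, 1422534_at, was under the filter, at 6.03 and 2.87 in knockout against 7.41 and 11.5 in wild type.

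Dhcr7 encodes 7-dehydrocholesterol reductase, which completes cholesterol. Its only probe set, 1448619_at, measured 105 and 87.0 in knockout against 145 and 95.7 in wild type (95.9 ± 12.5 and 120.4 ± 34.96, SD, n = 2 each). Wild-type array 1 stood above the other 3, and wild-type array 2 lay between the knockout arrays, so the groups overlapped (log2 -0.27, SE 0.32, interval -0.996 to 0.464).

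**Figure D1:**
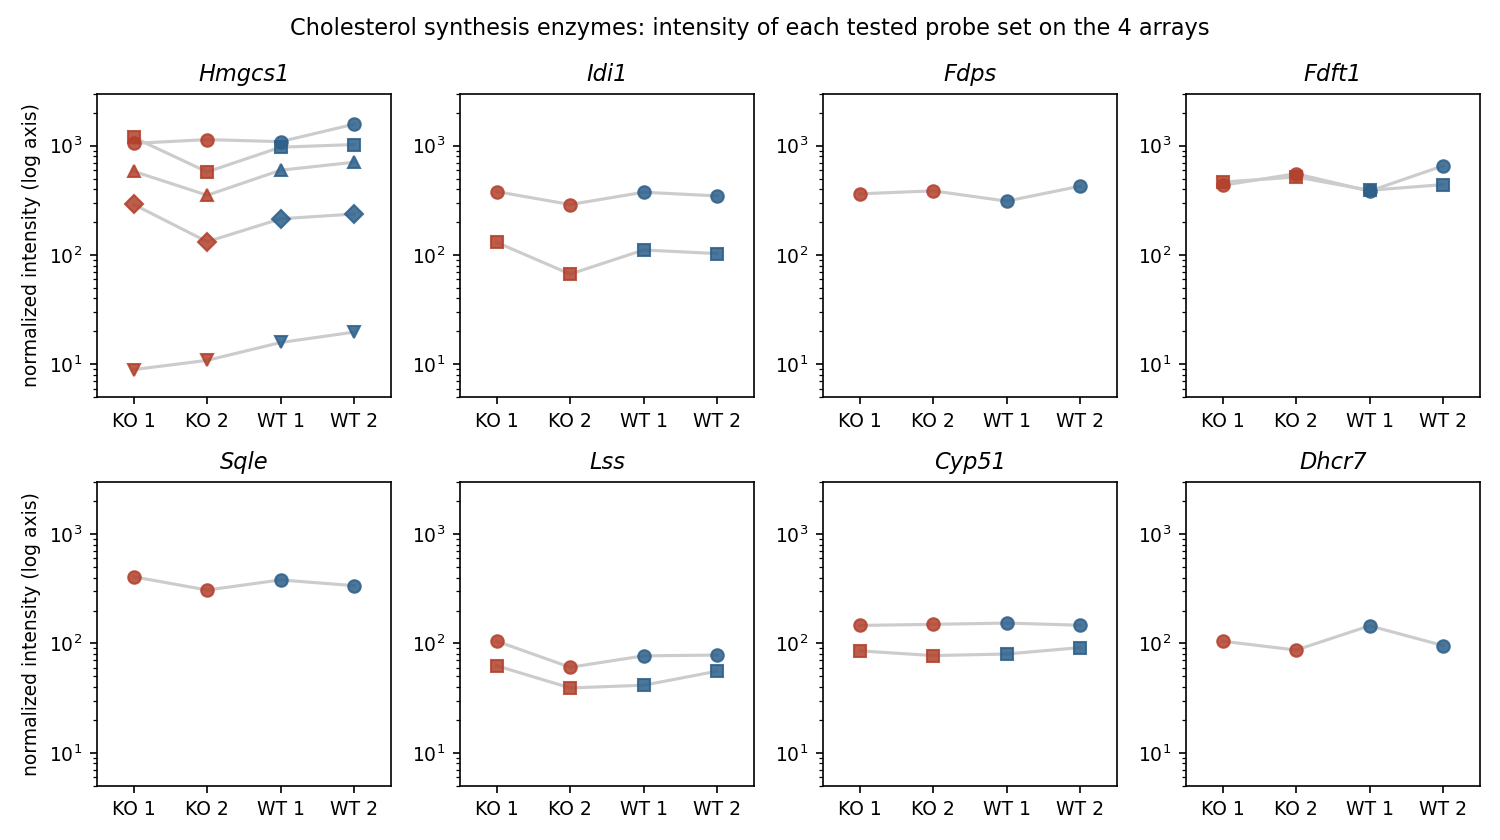
Normalized intensity (log axis) of the 16 tested probe sets on Hsf4 knockout arrays 1 and 2 (red) and wild-type arrays 1 and 2 (blue), 1 panel per enzyme; each symbol shape is 1 probe set and grey lines only join its values. In most panels the 2 colours overlap, and in 3 of the 5 Hmgcs1 probe sets knockout array 2 is the lowest of the 4 arrays.

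Most differences between the groups were smaller than those between arrays of one group, for the enzymes as for most genes tested. Of the 16 tested probe sets, 14 had a log2 change smaller than the larger of the gaps between the 2 knockout arrays and between the 2 wild-type arrays. With the brightest probe set standing for each enzyme, this held for 8 of 8, against 84.1% of the 11595 genes tested. The changes of the 8 ranged from -0.27 for Dhcr7 to 0.04 for Lss, with a median of -0.03, beside a median of -0.01 over all genes tested. In limma's fit over genes, 0 of the 8 passed an adjusted p of 0.05, against 0.0345% of all genes. The 95% intervals of the 8, which rest on limma's variance trend, reached from -0.98 to 0.77 and lay within a 2-fold change either way for 8 of 8, against 59.9% of all genes tested. Over probe sets this held for 12 of 16, and the other 4 were Hmgcs1 probe sets, whose intervals reached down to between -1.02 and -1.20.

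**Figure D2:**
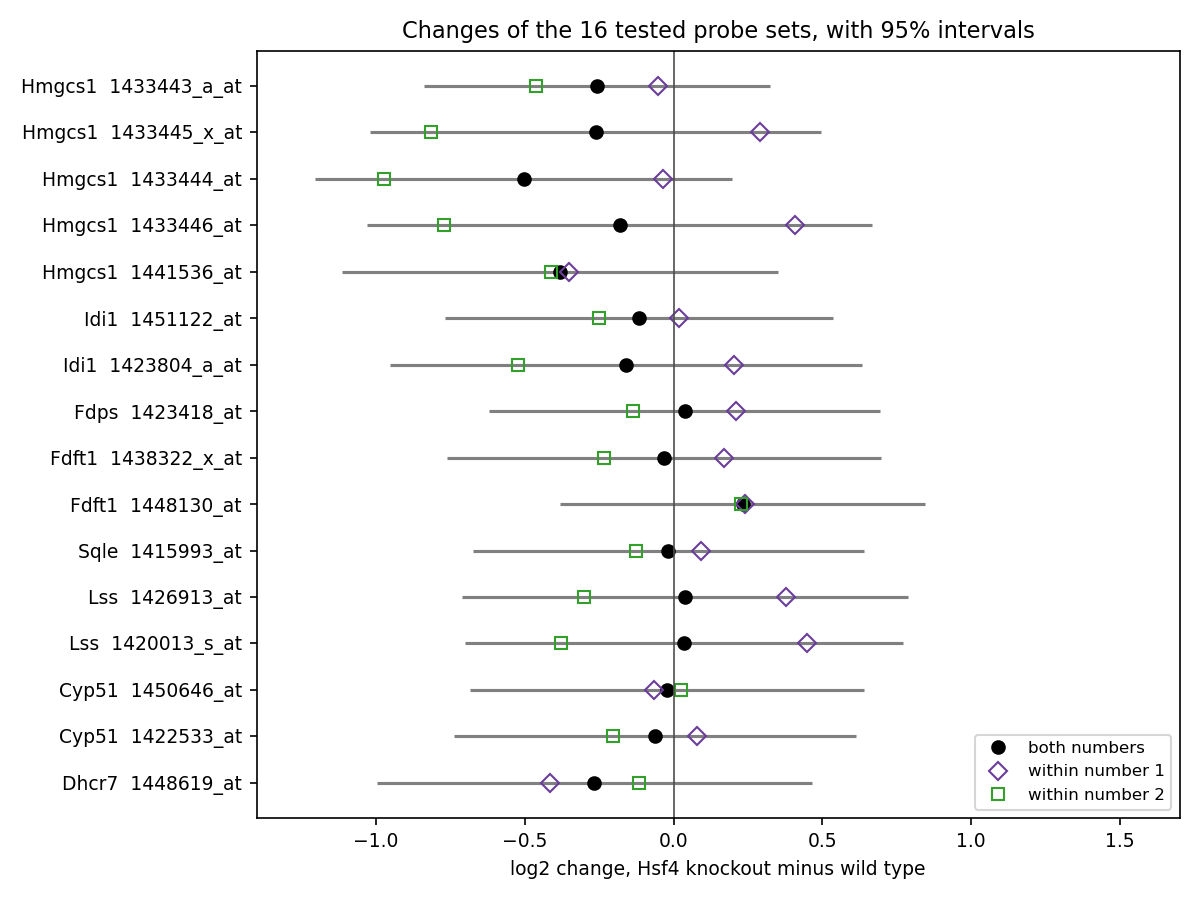
Log2 change (knockout minus wild type) of the 16 tested probe sets over both array numbers (black points) with 95% intervals (grey lines), and within number 1 (diamonds) and number 2 (squares). All 16 intervals include 0, and 14 of the 16 squares but only 5 of the 16 diamonds lie below 0.

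The 2 array numbers gave different pictures of the same enzymes. Within number 1, 3 of the 8 enzymes were lower in knockout, with a median change of 0.05, and within number 2, 7 of 8 were lower, with a median of -0.18, while the medians over all genes were 0.01 and -0.03. Over all genes, 52.4% were lower within number 2. Changes over all genes were also wider there, with an SD of 0.34 within number 1 and 0.53 within number 2. Lower values within both numbers were found for 2 of 8 enzymes, Hmgcs1 and Dhcr7, against 27.5% of all genes tested, and higher values within both for 0 of 8, against 26.1%. For 0 of the 8 did both knockout arrays lie below both wild-type arrays, against 14.3% of genes, and for 0 of 8 did both lie above, against 12.7%. The first count became 1 of 8 with median centring, and likewise when all probe sets of a gene were averaged. A change that differs between the numbers cannot be tested with 1 array per group and number.

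**Figure D3:**
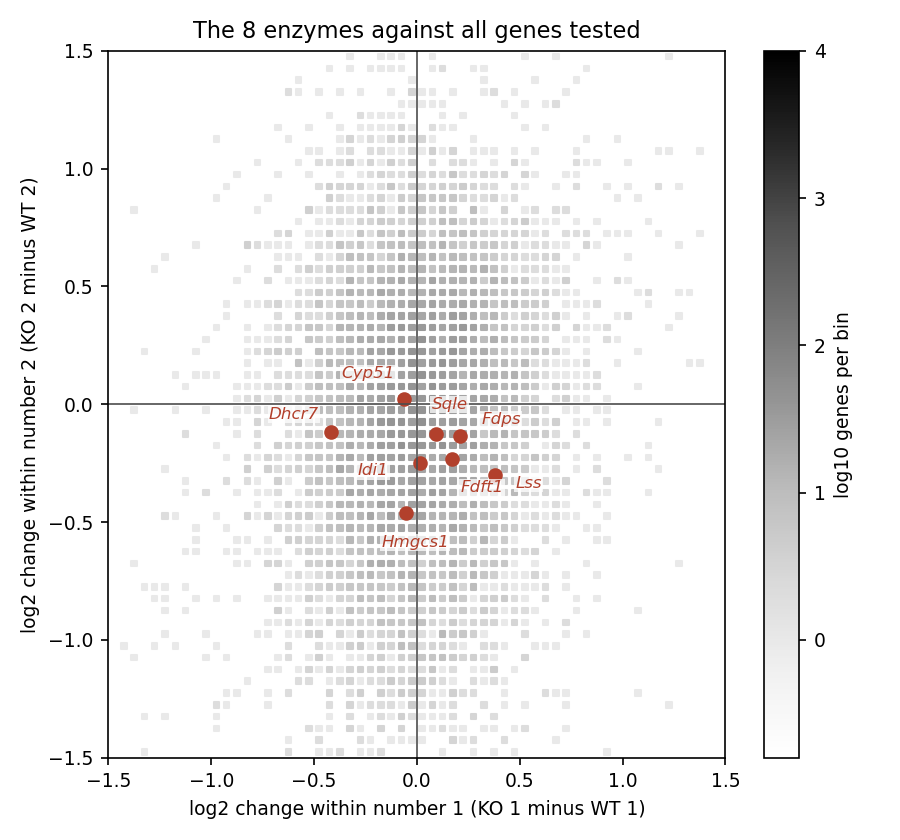
Log2 change within number 2 against that within number 1 for the 8 enzymes (red) and for all genes tested (grey squares, darker with more genes, genes past 1.5 not drawn). The 8 enzymes sit near the centre of the cloud, and 7 of the 8 lie below 0 on the vertical axis.

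Arrays of number 2, and knockout array 2 most, were dimmer as deposited. The trimmed mean of the deposited intensities was 85.5 and 21.4 on knockout arrays 1 and 2, against 96.2 and 45.6 on wild-type arrays 1 and 2. The ratio of 3' to 5' control signals, which rises as RNA is degraded or labelled incompletely, was 1.53 and 1.89 for actin on the knockout arrays against 1.67 and 1.51 on the wild-type arrays. For Gapdh it was 0.902 and 1.05 on the knockout arrays against 0.862 and 0.856 on the wild-type arrays. Their part in the lower number 2 values of Hmgcs1, Idi1 and Lss was not tested. Without knockout array 2 the log2 change was above 0 for Idi1 (0.07), Sqle (0.17) and Lss (0.38). It was below 0 for Hmgcs1 (-0.31), Fdft1 (-0.20), Dhcr7 (-0.15), Cyp51 (-0.04) and Fdps (-0.0046). These values set knockout array 1 against wild-type arrays of both numbers, so differences between the numbers enter them. Within number 1 alone, the change was above 0 for Fdft1 (0.17) and Fdps (0.21). For the other enzymes its sign was the same as without knockout array 2.

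The median change of the 8 enzymes depended on how the arrays were scaled. Within number 2 it was -0.18 with quantile normalization, -0.25 with trimmed-mean scaling, -0.96 with median centring and -1.19 with values as deposited. The values that follow are over both numbers. With values as deposited, the median change of the 8 enzymes was -0.63, beside -0.46 over all genes tested, and with median centring it was -0.45, beside -0.28. With trimmed-mean scaling it was -0.05, beside -0.000716. Relative to the median of all genes, the 8 enzymes thus stood at -0.02 with quantile normalization, -0.05 with trimmed-mean scaling and -0.17 with either of the others. Fdps and Lss, at 0.04 each with quantile normalization, stood at -0.58 and -0.37 with values as deposited. The number of enzymes called was 0 under each of the 4.

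**Figure D4:**
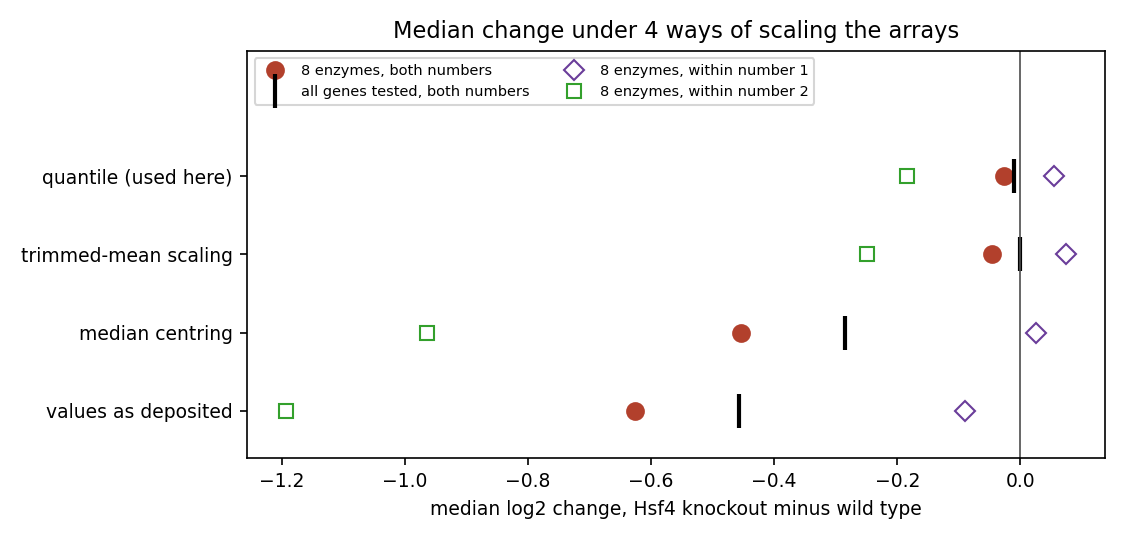
Median log2 change (knockout minus wild type) of the 8 enzymes under 4 ways of scaling the arrays, over both numbers (red) and within number 1 (diamonds) and number 2 (squares), with the median of all genes tested (black bars). The red points run from -0.63 to -0.03 and lie within 0.17 of the black bars, while the squares reach -1.19 with values as deposited.

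The rest of the pathway was read from the 11 of 14 further enzymes that have a probe set of their own here. Of the 11, 0 passed the threshold in limma in either direction, 0 had an unadjusted p under 0.05, and the median log2 change was 0.10, with values from -0.34 to 0.31. Within both numbers 3 were lower and 5 higher, against 27.5% and 26.1% of all genes tested. Lbr, a nuclear envelope protein with sterol reductase activity, measured 361 and 269.6 in knockout against 369 and 431 in wild type (log2 -0.34, SE 0.29). Both of its knockout arrays were lower, with -0.03 within number 1 and -0.65 within number 2. Mvd, mevalonate diphosphate decarboxylase, measured 91.1 and 64.2 in knockout against 75.6 and 44.9 in wild type (log2 0.31, SE 0.33), with groups that overlapped.

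The genes of sterol sensing and uptake held the largest upward value among the sterol lists. In limma 0 of its 11 genes passed, 0 had an unadjusted p under 0.05, and their median was -0.01. Srebf1, which encodes SREBP-1, measured 174 and 296 in knockout against 175 and 136 in wild type. Knockout array 2 was the highest and the number 1 arrays were nearly equal. The log2 change was 0.52 (SE 0.34), with -0.01 within number 1 and 1.04 within number 2. With values as deposited it was -0.08, where the median over all genes tested was -0.46. The change of Srebf1 was 0.16 with knockout array 2 left out, and leaving out knockout array 1 it was 0.87. Insig1, which holds the SREBP complex in the endoplasmic reticulum when sterols are plentiful, measured 191 and 286 in knockout against 184 and 173 in wild type. Both of its knockout arrays were higher (log2 0.36, SE 0.31), with 0.05 within number 1 and 0.68 within number 2. With values as deposited, beside the same median of -0.46 over all genes, the change of Insig1 was -0.23. Without knockout array 2 the change of Insig1 was 0.09, and without knockout array 1 it was 0.63. Srebf2, which encodes SREBP-2, the isoform best known for driving cholesterol synthesis, measured 198 and 145 in knockout against 198 and 146 in wild type, so each knockout array was close to the wild-type array of its number (log2 -0.01, SE 0.32).

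Fatty acid synthesis, which shares acetyl-CoA and SREBP control with the sterol pathway, had a median log2 change of -0.29 over 11 genes, -0.28 within number 1 and -0.22 within number 2. None of the 11 passed the threshold in limma and 0 had an unadjusted p under 0.05. Within both numbers 4 were lower and 1 was higher, against 27.5% and 26.1% of all genes tested. Acly, ATP citrate lyase, which supplies cytosolic acetyl-CoA, measured 588 and 477 in knockout against 716 and 641 in wild type (log2 -0.35, SE 0.27), with both knockout arrays lower. Acss2, which makes acetyl-CoA from acetate, measured 44.6 and 17.4 in knockout against 40.1 and 54.3 in wild type (log2 -0.48, SE 0.37), with the difference in number 2. With the mean of all probe sets of a gene, the change was -0.16 for Acly and -0.27 for Acss2.

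Of the genes of sterol export, storage and oxysterol receptors, 4 of the 7 with a probe set were tested, 0 passed in limma and 0 had an unadjusted p under 0.05, with a median of 0.15. Abcg1, a cholesterol exporter, measured 52.9 and 34.8 in knockout against 73.3 and 56.5 in wild type, with both knockout arrays lower (log2 -0.44, SE 0.32), though the change was 0.06 with the mean of all its probe sets. Cyp46a1, cholesterol 24-hydroxylase, measured 48.4 and 43.2 in knockout against 45.2 and 25.0 in wild type (log2 0.30, SE 0.33), with groups that overlapped. Among 7 genes that use isoprenoids, 0 passed in limma, 0 had an unadjusted p under 0.05, and the median was -0.05. Dhdds, a subunit of the enzyme that makes dolichol precursors, measured 83.5 and 83.2 in knockout against 104 and 116 in wild type, with both knockout arrays lower (log2 -0.34, SE 0.29). Its change was -0.14 with the mean of all its probe sets. Fnta, the alpha subunit of protein farnesyltransferase, measured 1111 and 1008 in knockout against 832 and 1106 in wild type (log2 0.14, SE 0.25), with groups that overlapped.

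**Figure D5:**
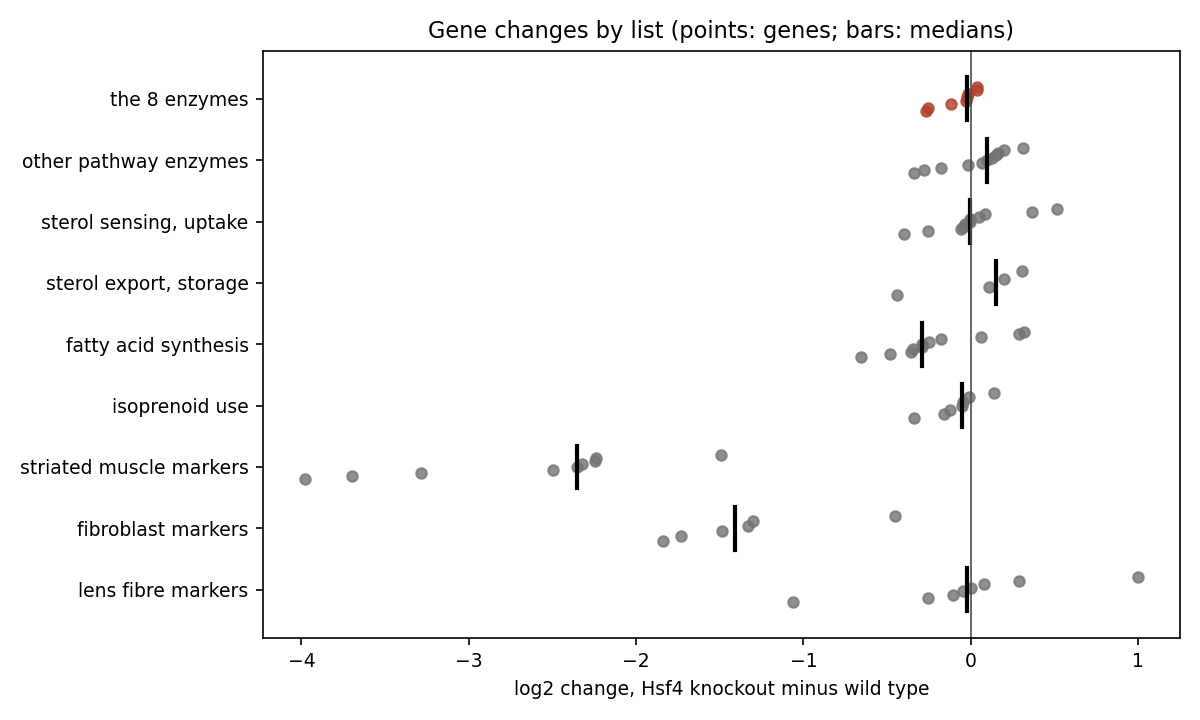
Log2 change (knockout minus wild type) of each tested gene in the sterol lists and in 3 marker lists (points), with list medians (black bars). With each gene shown by its brightest probe set, the 8 enzymes (red) span -0.27 to 0.04. The striated muscle markers have a median of -2.35 and the fibroblast markers of -1.41.

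Markers of lens cells and of other cell types were read beside these values. The 8 lens fibre markers had a summed intensity of 44493 and 42175 in knockout against 46109.6 and 41894 in wild type. Crystallins made up most of each sum. Quantile normalization gives probe sets of equal rank the same value. Cryba1 thus stood at 9184 and 9805 in knockout and again in wild type, and Cryaa at 8511.5 on both wild-type arrays. Sums bound to ranks in this way cannot show whether fibre content was equal. The log2 changes of the 8 markers ran from -1.06 to 1.00, with 0 past the threshold in limma. Of the 8, 1 had an unadjusted p under 0.05, Bfsp1, a beaded filament protein, at 2186 and 2060 in knockout against 5220 and 3785 in wild type, with both knockout arrays lower. Its partner Bfsp2 measured 60.1 and 2907 in knockout against 180.1 and 268 in wild type, so it was lower in knockout within number 1 and higher within number 2. All 9 striated muscle markers were lower on both knockout arrays, against 14.3% of all genes tested. They had a summed intensity of 123 and 146 in knockout against 2628 and 1392 in wild type. Of the 9, 3 passed the threshold in limma, and these 3 were the only genes called lower among the 11595 tested. All 6 fibroblast markers were also lower on both knockout arrays, against the same 14.3%, and 0 passed the threshold. The fibroblast sums were 329.7 and 613 in knockout against 1065 and 1596 in wild type. Of 5 markers of myelinating glia, cells known for high cholesterol synthesis, 2 were tested, and the 3 with a probe set summed to 73.7 and 43.0 in knockout against 72.1 and 62.2 in wild type. The 2 tested had a median log2 change of 0.07 within number 1 and -0.42 within number 2. Other lists also differed between the numbers. Neural retina markers summed to 1176 and 370.3 in knockout against 1031 and 1053 in wild type, with a median log2 change of 0.08 within number 1 and -1.16 within number 2. Erythroid markers summed to 131 and 502 in knockout against 90.1 and 155 in wild type. Over both numbers the medians were 0.03 for lens epithelium, 0.14 for endothelium and -0.10 for macrophages, and 0 genes of these 5 lists passed the threshold in limma. Within numbers 1 and 2 the medians were -0.07 and 0.21 for lens epithelium, -0.19 and 0.48 for endothelium, and 0.03 and -0.20 for macrophages. No marker of these lists was at 0 on any array, but a value above 0 does not show that its RNA was present. Mag, under the filter, measured 4.49 and 0.766 in knockout against 2.99 and 0.607 in wild type. The part of these cells' RNA in the signal of each enzyme was not tested.

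The 8 enzymes differed among themselves in their pattern over the 4 arrays. Each gene's log2 values were centred on its mean over the 4 arrays and set against the mean of the 8 centred profiles, which was 0.03 and -0.11 on knockout arrays 1 and 2 and -0.01 and 0.09 on wild-type arrays 1 and 2. The root mean square distance from that mean was 0.09 for Cyp51, 0.11 for Idi1, 0.13 for Sqle, 0.15 for Fdps, 0.19 for Hmgcs1, 0.20 for Lss, 0.25 for Dhcr7 and 0.28 for Fdft1. Of the 11543 genes outside the sterol lists, 509 were at least as near to the mean profile as Cyp51, the nearest of the 8, and 6663 as near as Fdft1, the farthest. The 5 nearest were Ncbp3, Rev3l, Vps35, Mospd1 and Rbbp4, at distances of 0.0168 to 0.0238, and with 4 arrays and a flat profile such nearness is a description only.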

How the data were processed

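The authors' deposited values are linear intensity values, 1 per probe set and array, from biotin-labelled RNA per the labels' protocols. How signals were summarised and corrected for background is not stated in the labels or headers, and the deposited intensities were not on one scale. The 45101 probe sets went through quantile normalization (limma 3.58.1, R 4.3.3), 16 was added and log2 was taken. The 64 controls were then left out. Symbols came from the platform annotation (1 symbol for 34945 probe sets, of which 34741 were matched to RefSeq by gene ID). Genes were represented by their brightest probe set, and features with a mean log2 of at least 4.86, the median, were tested by limma with a variance trend, over 22519 probe sets and 11595 genes. The fit was also run on simulated data with independent noise and no effect of the array number. That run does not show how the fit behaves on these arrays. The labels do not say what a shared array number marks. Deviations of same-numbered arrays from their group means correlated at 0.43 over genes, and with 2 numbers no block was used in the reported fit. Differences between the numbers therefore count as spread in its SEs and intervals. Over genes, knockout array 1 correlated at 0.973 with wild-type array 1 and at 0.925 with knockout array 2. Wild-type array 2 correlated at 0.941 with knockout array 2 and at 0.949 with wild-type array 1.

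Members and lists were chosen with earlier results of these data known. The text names the 8 enzymes, and from each wider list the genes that passed, or failing those the 2 of lowest p, and the 5 most alike; Srebf2, Fntb, Bfsp1 and Bfsp2 were named after their values were seen. Listed genes without a probe set of their own in the annotation used here were not analysed here. Alternatives were other scalings, offsets of 1 and 64, other filters, no variance trend, the number as a block, the mean of all probe sets, and leaving out each array.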

Additional observations from a re-analysis of the deposited data

How the results depend on the processing

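With 2 arrays per group, precision is limited by their number. No enzyme or enzyme probe set was called under any alternative run. With the array number as a replicate block the count was 0 of 8, with limma adjusted p from 0.681 for Hmgcs1 (log2 -0.26) to 0.994 for Sqle and Cyp51, and the block changed no call of the 8 enzymes or of the 2 genes named by rule from each wider list. Calls over all genes, 4 with all arrays, were 200 with the block, 289 without knockout array 1, 61 without knockout array 2, 8 without wild-type array 2, 12 with median centring, 7 with trimmed-mean scaling, and 0 with values as deposited, with no filter or with the mean of all probe sets. The median change of the 8 enzymes, -0.03 with all arrays, was -0.63 with values as deposited and -0.45 with median centring. It ranged from -0.20 without knockout array 1 to -0.020 without knockout array 2. Without knockout array 1, Fntb, a farnesyltransferase subunit, was the only gene of the wider lists called (log2 -1.23, limma adjusted p = 0.0375), so that count ranged from 0 to 1. A group left with 1 array is assumed there to vary like the other group. Leaving out an array also unbalances the numbers between the groups, so differences between the numbers enter those changes. The filter at the 70th percentile left out Acss2 and Cyp46a1.

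The sign of some changes turned, none of them called. With values as deposited these were Fdps (-0.58), Lss (-0.37), Fnta (-0.49), Mvd (-0.13), Cyp46a1 (-0.10), Srebf1 (-0.076) and Insig1 (-0.23). The median over all genes tested was itself -0.46 there and -0.28 with median centring. With median centring they were Fdps (-0.41), Lss (-0.19), Fnta (-0.32) and Insig1 (-0.059). With the mean of all probe sets they were Fdft1 (0.069), Lss (-0.052) and Abcg1 (0.063). When each array was left out, the change ranged for Hmgcs1 from -0.53 to 0.0019, for Idi1 from -0.30 to 0.071, for Fdps from -0.18 to 0.25, for Fdft1 from -0.40 to 0.32, for Sqle from -0.21 to 0.17, for Lss from -0.29 to 0.38, for Dhcr7 (always below 0) from -0.53 to -0.0017, for Cyp51 from -0.0495 to 0.0101, and for Fnta from -0.058 to 0.34. The cause was not tested.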
